A study of Mus musculus with 8 samples.

Results

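Interferon regulatory factors (IRFs) are transcription factors that bind the promoters of interferon genes and of the genes that interferons induce. Type I interferon acts through a receptor made of the chains IFNAR1 and IFNAR2. The transcripts of 8 IRF genes (Irf1, Irf2, Irf3, Irf4, Irf5, Irf7, Irf8 and Irf9) and of both receptor chains were taken by gene symbol from a table of 55801 genes. Each of the 10 symbols had 1 row, and all 10 genes had a mean level of at least 1 TPM (reads per gene divided by gene length and scaled to the same total in every sample), so that all were among the 12189 genes tested.

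The cells were peritoneal macrophages that thioglycollate had drawn into the abdominal cavity of male C57BL/6 mice of 6 to 8 weeks. The 4 groups of 2 samples each were vehicle (NC), the bacterial outer membrane lipid LPS (100 ng/ml for 4 h), the bioactive compound C498 (15 µM), and C498 given 0.5 h before LPS (C498+LPS). All groups share the thioglycollate recruitment, and whether the samples of a group came from separate mice or cultures is not stated, so p-values measure the spread between these samples, which may be technical. A gene passed the test at an adjusted p of at most 0.05 in limma over all genes tested, and a differentially expressed gene (DEG) had also to change at least 2-fold. All changes are differences of log2(TPM + 1).

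In a macrophage, LPS binds TLR4, and the adaptors TRIF and MyD88 then pass the signal on. IRF3 and IRF7 wait in the cytoplasm until the kinases TBK1 and IKKε phosphorylate them, whereupon they switch on type I interferon, while IRF5 acts beside MyD88 on inflammatory cytokine genes. Interferon bound to IFNAR1 and IFNAR2 activates the kinases TYK2 and JAK1, and IRF9 joins phosphorylated STAT proteins such as STAT2 in the complex ISGF3. IRF1 and IRF2 compete for the same DNA elements as an activator and mainly a repressor, and IRF4 and IRF8 bind DNA weakly alone and work with partners such as PU.1, IRF8 as a factor of the macrophage lineage. Transcript levels say nothing of phosphorylation, by which several IRFs are controlled.

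Markers of other cells moved with C498 and are given once here. The 8 macrophage markers (Adgre1, Cd68, Csf1r, Itgam, Lyz2, Mertk, Fcgr1 and Marco) identify the cells, none was at 0 in all samples, and their summed level was 19888 to 20394 TPM in NC, 16628 to 17274 in LPS, 15274 to 15442 in C498 and 10643 to 12430 in C498+LPS. Lyz2 made up most of this sum, with means of 15986 TPM in NC, 13225 in LPS, 11497 in C498 and 8536 in C498+LPS. Cd68 had means of 2791, 2489, 2839 and 2314 TPM in the same order. Of the 8 macrophage markers, 5 passed the test in C498+LPS vs LPS, all lower, where 7.7% of all tested genes were lower. In C498 vs NC 2 of the 8 passed, both lower, where 6.19% of all tested genes were lower. The summed level of 5 fibroblast markers was 150.2 to 192 TPM in NC, 176 to 200.5 in LPS, 633 to 750.0 in C498 and 618 to 911 in C498+LPS. All 5 were higher in C498 vs NC (against 9.29% of all tested genes) and 4 of 5 in C498+LPS vs LPS (9.08%), and none was at 0 in all samples. Mesothelial markers summed to 4.66 to 5.58 TPM without and 14.8 to 24.5 TPM with C498, and neutrophil markers to 82.0 to 132 TPM without and 52.2 to 80.8 TPM with it. Most of the neutrophil sum was S100a8, with means of 102.1 TPM in NC, 102.7 in LPS, 51.1 in C498 and 75.3 in C498+LPS. Of the 6 neutrophil markers, 4 had a mean under 1 TPM. Among these, S100a9 and Ly6g were at 0 in every sample without C498 and reached at most 0.86 and 2.62 TPM with it. Plasmacytoid dendritic cell markers summed to 32.1 to 33.7 TPM in LPS and 19.9 to 28.1 TPM in the other groups. Of the 3 tested 1 passed in LPS vs NC, as higher, where 9.84% of all tested genes were higher. It was Tcf4 (1.43, adjusted p = 0.0324 in limma), with a mean of 6.82 TPM in NC and 18.4 TPM in LPS, while Runx2 (-0.65) and Cox6a2 (-0.16) did not pass. In C498+LPS vs LPS 1 of the 3 passed, Runx2 (1.37, adjusted p = 0.0228 in limma), where 9.08% of all tested genes were higher. Tcf4 (-0.76) and Cox6a2 (-0.21) did not pass there, and the defining marker Siglech was at 0.07 TPM or less in every sample. Over all samples the summed levels were 3.17 to 7.76 TPM for T cell, 4.71 to 14.9 for mast cell and at most 2.26 TPM for eosinophil markers. In bulk samples fewer cells of a type and less RNA per cell cannot be told apart, and the part of these shifts in the results on IRFs was not tested.

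**Figure D1:**
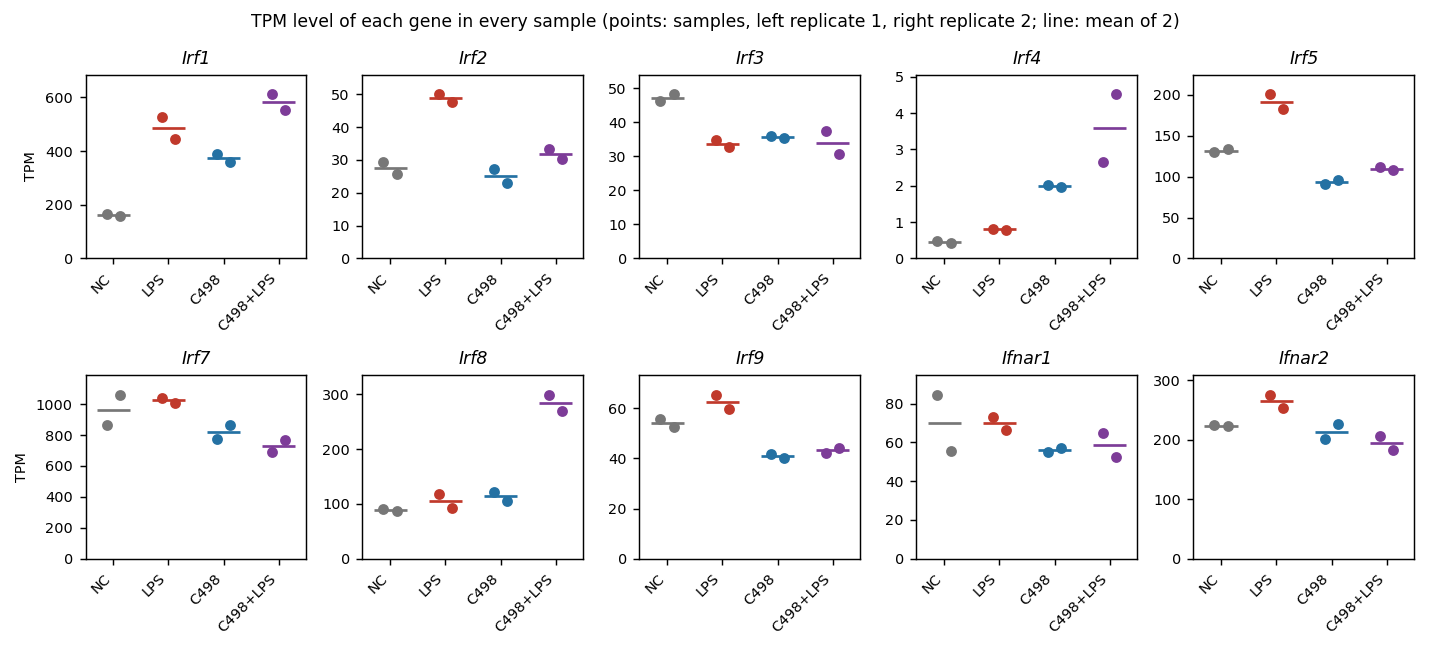
TPM level (vertical axis, from 0) of the 10 genes in each of the 4 groups, with points for the 2 samples and a line for their mean. Irf8 stood at 269.6 and 299 TPM in C498+LPS and at 121.5 TPM or less in the other groups, whereas Irf5 was highest in LPS and lowest in C498.

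In NC, the levels spanned more than 3 orders of magnitude. Irf7 had the highest level with 862 and 1062 TPM, followed by Ifnar2 (224 TPM in both samples), Irf1 (157 and 166 TPM), Irf5 (130.4 and 133 TPM) and Irf8 (87.4 and 90.7 TPM). Ifnar1 (55.7 and 84.6 TPM) and Irf9 (52.4 and 55.8 TPM) came next and overlapped, and Irf3 (46.2 and 48.2 TPM) and Irf2 (25.7 and 29.4 TPM) were lower. Irf4 was at 0.440 and 0.480 TPM. Apart from Ifnar1 and Irf9, the samples of neighbouring genes in this order did not overlap in NC. Irf7 was the highest and Irf4 the lowest of the 10 genes in all 4 groups, and in C498+LPS Irf8 stood above Ifnar2, which it did in no other group.

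The receptor chains were examined first, since they set whether a cell can answer type I interferon. Ifnar1 (ENSMUSG00000022967) and Ifnar2 (ENSMUSG00000022971) lie on the same strand of chromosome 16, from 91485238 to 91507441 and from 91372783 to 91405589 (GENCODE M21 on GRCm38), with Il10rb between them and Ifngr2 beyond Ifnar1. Ifnar1 was at 84.6 and 55.7 TPM in NC, 73.2 and 66.4 TPM in LPS, 55.2 and 57.3 TPM in C498, and 65.0 and 52.6 TPM in C498+LPS. The NC samples alone were further apart than the 6 others, and the groups overlapped in each comparison except C498+LPS vs LPS. Ifnar1 passed the test in none of the 4 comparisons (limma, adjusted p between 0.366 and 0.955).

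Ifnar2 had levels of 224.2 and 224 TPM in NC, 276 and 253 TPM in LPS, 201 and 227 TPM in C498, and 206 and 183 TPM in C498+LPS. Both LPS samples were above all other samples. C498+LPS was 1.36-fold below LPS (log2 change -0.44, standard error 0.102, 95% interval -0.69 to -0.20), which passed the test with an adjusted p of 0.0268 in limma. The call was lost without LPS replicate 1 (adjusted p = 0.158), LPS replicate 2 (0.0871) or C498+LPS replicate 2 (0.149), with quantile normalization (0.065), without a variance trend (0.0724) and without a filter on low values (0.0527). Ifnar2 exceeded Ifnar1 by 2.65-fold to 4.02-fold in the 8 samples. The gene-level values do not separate the membrane-bound and soluble forms of IFNAR2, and part of Ifnar2 is overlapped on the same strand by the annotated gene Gm21970, which was at 0.210 TPM or less.

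Ifngr2 and Il10rb, the neighbours of Ifnar1 on chromosome 16 and parts of the receptors for interferon gamma and for the IL-10 family, passed the test as lower in all 4 comparisons, although with centring on the median gene neither passed in C498+LPS vs C498 and Ifngr2 did not pass in LPS vs NC (-0.35, adjusted p = 0.109 in limma). Ifngr2 fell from a mean of 92.0 TPM in NC to 64.0 in LPS, 61.5 in C498 and 40.5 in C498+LPS, and Il10rb from 168.2 TPM in NC to 116.5, 104 and 74.4 TPM. Ifngr1, the ligand-binding chain for interferon gamma, fell from 49.9 TPM in NC to 24.0 in LPS (log2 change -1.03, adjusted p = 0.0015 in limma) and 32.6 in C498 (-0.60, adjusted p = 0.0239). It did not pass in C498+LPS vs LPS (means of 23.8 and 24.0 TPM, adjusted p = 0.991) or in C498+LPS vs C498 (adjusted p = 0.0619). Il10rb is listed here as the shared chain of the interferon lambda receptor, whose other chain, Ifnlr1, had mean levels of 0.03 to 0.11 TPM.

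Irf9 encodes the DNA-binding subunit of ISGF3 (ENSMUSG00000002325, chromosome 14, 55603571 to 55610030). It was at 55.8 and 52.4 TPM in NC, 65.4 and 59.7 TPM in LPS, 41.9 and 40.2 TPM in C498, and 42.3 and 44.1 TPM in C498+LPS. All 4 samples with C498 were below all 4 without it. Irf9 fell 1.45-fold in C498+LPS vs LPS (log2 change -0.52, 95% interval -0.76 to -0.29, adjusted p = 0.0139 in limma) and 1.32-fold in C498 vs NC (-0.39, adjusted p = 0.0417). It was at 0.20 in LPS vs NC, which did not pass (adjusted p = 0.17). The first call was lost without any 1 of the 4 samples compared (adjusted p from 0.0600 to 0.105), and the second was lost without any 1 of the 8 samples (from 0.0549 to 0.186), without a variance trend (0.0762) and in a fit of C498 and NC alone (0.132). Rnf31 overlaps a short stretch of Irf9 on the same strand.

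Irf3 (ENSMUSG00000003184, chromosome 7, 44997648 to 45002848) encodes the latent factor that TBK1 activates. Its levels were 46.2 and 48.2 TPM in NC, 34.8 and 32.6 TPM in LPS, 35.9 and 35.4 TPM in C498, and 37.3 and 30.8 TPM in C498+LPS. Both NC samples were above all 6 others, which lay between 30.8 and 37.3 TPM. In LPS vs NC the log2 change was -0.48 (standard error 0.121, adjusted p = 0.0241 in limma), and in C498 vs NC it was -0.40 without passing the test (adjusted p = 0.0689). The median change of all genes in LPS vs NC was -0.17, and with every sample centred on its median gene Irf3 changed by -0.31 with an adjusted p of 0.173. The call in LPS vs NC was also lost without NC replicate 2 (adjusted p = 0.0575), either LPS sample (0.0836 and 0.127) or either C498 sample (0.0523 and 0.0526), and in a fit of LPS and NC alone (0.0642). Irf3 overlaps Bcl2l12 on the opposite strand, which was at 2.49 to 14.1 TPM, and reads of both genes there cannot be told apart without strand.

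Irf7 (ENSMUSG00000025498, chromosome 7, 141262706 to 141266481, minus strand), itself an interferon-induced gene and the main amplifier of type I interferon, was abundant before LPS or C498 in these recruited cells, and its mean over all samples, treated ones included, was at the 98.4 percentile of the genes tested. It was at 862 and 1062 TPM in NC, 1039 and 1008 TPM in LPS, 777 and 864 TPM in C498, and 689.9 and 766 TPM in C498+LPS. The NC samples spanned the LPS samples, so that Irf7 did not differ detectably between LPS and NC (log2 change 0.10, 95% interval -0.18 to 0.38, adjusted p = 0.587 in limma). In C498+LPS vs LPS it was 1.41-fold lower (log2 change -0.49, standard error 0.119, adjusted p = 0.0309). That call was lost without any 1 of the LPS, C498 or C498+LPS samples (adjusted p from 0.0616 to 0.158), with centring (0.0996), without a variance trend (0.0765) and without a filter (0.0827). In C498 vs NC the change was -0.22 (adjusted p = 0.244), with overlapping samples.

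Irf5 (ENSMUSG00000029771, chromosome 6, 29526625 to 29541871), the factor that acts beside MyD88, moved in opposite directions under LPS and C498. It was at 130.4 and 133 TPM in NC, 201 and 183 TPM in LPS, 91.1 and 96.2 TPM in C498, and 112 and 108 TPM in C498+LPS. None of the 4 groups overlapped another. Irf5 rose 1.46-fold in LPS vs NC (log2 change 0.54, standard error 0.088, adjusted p = 0.00446 in limma) and fell 1.75-fold in C498+LPS vs LPS (-0.80, adjusted p = 0.0019), and both calls held under every alternative tried, with adjusted p up to 0.0401 and 0.0238. In C498 vs NC it was 1.41-fold lower (-0.49, adjusted p = 0.0131), a call lost without C498 replicate 1 (0.1) or 2 (0.0691) and in a fit of C498 and NC alone (0.0608). With C498 present, LPS changed Irf5 by 0.23 (adjusted p = 0.123).

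The promoters of Irf1, Irf2, Irf4 and Irf8 are shown because Irf1, Irf4 and Irf8 were the DEGs among the 10 genes and Irf2 is the counterpart of Irf1. Each line gives the 250 bases before the transcription start in RefSeq (GRCm38.p6), 5′ to 3′, on the plus strand, at chr11:53769764-53770013 (Irf1), chr8:46739495-46739744 (Irf2), chr13:30748983-30749232 (Irf4) and chr8:120736108-120736357 (Irf8). Capitals mark matches to 4 motifs searched on both strands, which are the STAT dimer element GAS (TTCNNNGAA), the ISRE core bound by IRFs and ISGF3 (GAAA, any 2 bases, GAAA), the AP-1 site (TGANTCA) and the NF-kB consensus.
Irf1: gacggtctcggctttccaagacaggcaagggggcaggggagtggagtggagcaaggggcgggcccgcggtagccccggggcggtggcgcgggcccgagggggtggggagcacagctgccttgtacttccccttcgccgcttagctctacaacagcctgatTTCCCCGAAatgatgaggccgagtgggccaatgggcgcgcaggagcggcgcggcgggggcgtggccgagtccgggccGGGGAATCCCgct
Irf2: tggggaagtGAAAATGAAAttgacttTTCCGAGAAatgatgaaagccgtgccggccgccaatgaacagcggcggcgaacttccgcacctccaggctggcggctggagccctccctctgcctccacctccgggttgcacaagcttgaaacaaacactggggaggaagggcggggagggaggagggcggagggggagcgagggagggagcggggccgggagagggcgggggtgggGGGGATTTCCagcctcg
Irf4: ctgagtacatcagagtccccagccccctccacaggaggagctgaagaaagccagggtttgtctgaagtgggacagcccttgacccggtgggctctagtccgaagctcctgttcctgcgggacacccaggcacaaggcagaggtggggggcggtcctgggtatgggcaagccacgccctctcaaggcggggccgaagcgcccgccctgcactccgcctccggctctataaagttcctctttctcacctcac
Irf8: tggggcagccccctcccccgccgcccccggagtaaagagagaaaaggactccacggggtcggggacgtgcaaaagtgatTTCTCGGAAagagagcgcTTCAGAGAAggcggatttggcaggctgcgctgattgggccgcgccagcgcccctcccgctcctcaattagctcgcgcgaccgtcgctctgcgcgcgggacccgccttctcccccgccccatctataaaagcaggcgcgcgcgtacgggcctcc

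In the Irf1 promoter the capitals are a GAS element 90 to 82 bases and an NF-kB match 13 to 4 bases before the start. Irf2 holds an ISRE core (241 to 232 bases before the start), a GAS element (224 to 216) and an NF-kB match (17 to 8). Irf8 holds a pair of GAS elements, 171 to 163 and 153 to 145 bases before the start, and Irf4 holds none of the 4 motifs in this window. Across all 10 genes, GAS was found in 4 promoters (Irf1, Irf2, Irf8 and Ifnar2), the NF-kB consensus in 2, the ISRE core in 1 and the AP-1 site in 0. Of 32851 windows of the same length in the table, 7.02% hold GAS, 3.9% the NF-kB consensus, 2.98% the ISRE core and 6.75% the AP-1 site. No motif match overlapped another. Irf1, Irf8 and Irf9 have 2 windows each in the table, and the one closest to the GENCODE start was taken. For Irf9 its start lies 414 bases inside the GENCODE gene, so that its window lies within the gene and the bases before its annotated start were not searched. A match describes letters only and does not show that a factor binds there.

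Irf1 (ENSMUSG00000018899, chromosome 11, 53770014 to 53778374), an activator induced by interferon gamma and by NFκB, was raised by LPS and by C498 alone. Its levels were 166 and 157 TPM in NC, 527 and 446 TPM in LPS, 389 and 359 TPM in C498, and 612 and 553 TPM in C498+LPS. The 4 groups did not overlap, with C498+LPS highest. Irf1 rose 3.01-fold in LPS vs NC (log2 change 1.58, standard error 0.108, adjusted p = 0.000103 in limma) and 2.32-fold in C498 vs NC (1.21, adjusted p = 0.000834), and both calls held under every alternative tried. In the presence of C498, LPS raised it 1.56-fold (0.64 in C498+LPS vs C498, adjusted p = 0.0101, and above 0.05 without C498 replicate 1, C498 replicate 2 or C498+LPS replicate 1, with 0.0591, 0.088 and 0.062). C498+LPS vs LPS was at 0.26 (95% interval 0.0087 to 0.52) and did not pass (adjusted p = 0.149). The opposite strand within Irf1 carries the annotated gene Gm17334, at mean levels of 1.44 to 5.87 TPM.

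Irf2 (ENSMUSG00000031627, chromosome 8, 46739732 to 46847458), the counterpart of Irf1 that mainly represses, rose with LPS and did not differ detectably between C498 and NC (log2 change -0.13, 95% interval -0.44 to 0.18). It was at 29.4 and 25.7 TPM in NC, 50.02 and 47.6 TPM in LPS, 27.3 and 22.9 TPM in C498, and 33.2 and 30.3 TPM in C498+LPS. The LPS samples were above all others. Irf2 rose 1.77-fold in LPS vs NC (log2 change 0.80, standard error 0.132, adjusted p = 0.00449 in limma), under every alternative tried, and fell 1.54-fold in C498+LPS vs LPS (-0.61, adjusted p = 0.0221). The second call was lost without any 1 of the 4 samples compared (adjusted p from 0.0593 to 0.135). In C498+LPS vs C498 the change was 0.33 (adjusted p = 0.133), and it passed with centring (0.55, adjusted p = 0.0254) and with quantile normalization (0.51, adjusted p = 0.0234). The ratio of Irf1 to Irf2 was 5.64 and 6.10 in NC, 10.5 and 9.37 in LPS, 14.2 and 15.7 in C498, and 18.4 and 18.3 in C498+LPS, with no overlap between groups.

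Irf8 (ENSMUSG00000041515, chromosome 8, 120736358 to 120756694), a lineage factor of macrophages and dendritic cells, changed most where C498 and LPS came together. It was at 90.7 and 87.4 TPM in NC, 118 and 93.0 TPM in LPS, 121.5 and 106 TPM in C498, and 299 and 269.6 TPM in C498+LPS. The first 3 groups lay between 87.4 and 121.5 TPM, and both C498+LPS samples were more than 2-fold above every sample of them. Irf8 rose 2.70-fold in C498+LPS vs LPS (log2 change 1.43, standard error 0.135, adjusted p = 0.00122 in limma) and 2.50-fold in C498+LPS vs C498 (1.31, adjusted p = 0.00135), under every alternative tried, with adjusted p up to 0.0125 and 0.0203. Neither LPS vs NC (0.23, adjusted p = 0.239) nor C498 vs NC (0.35, adjusted p = 0.125) passed the test, although C498 vs NC passed in limma with the replicate number as a block (0.042). The annotated gene Gm20388 spans all of Irf8 on the same strand, and reads of both cannot be told apart.

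Irf4 (ENSMUSG00000021356, chromosome 13, 30749226 to 30766976) is known from lymphocytes, dendritic cells and alternatively activated macrophages. It was at 0.480 and 0.440 TPM in NC, 0.820 and 0.780 TPM in LPS, 2.02 and 1.96 TPM in C498, and 2.66 and 4.52 TPM in C498+LPS. All 4 samples with C498 were above all 4 without it. Irf4 rose 4.33-fold in mean TPM in C498 vs NC (log2 change 1.03, standard error 0.264, adjusted p = 0.0406 in limma) and 4.49-fold in C498+LPS vs LPS (1.32, adjusted p = 0.0158), and the added 1 TPM makes the log2 changes smaller than these folds. Irf8 exceeded Irf4 in every sample, by 54.2-fold to 199-fold.

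The values of Irf4 rest on low levels and, in C498+LPS, on unequal samples. Without C498+LPS replicate 2 the change in C498+LPS vs LPS was 1.02 with an adjusted p of 0.0697, and the call was also lost without LPS replicate 1 (0.0841) or 2 (0.0886). In C498 vs NC the call was lost without any 1 of the NC, LPS or C498 samples (adjusted p from 0.0512 to 0.154), with centring (0.0575), with quantile normalization (0.0884), without a filter (0.0759) and in a fit of C498 and NC alone (0.0769), and a minimum mean of 5 TPM removes the gene. The 6 B cell markers had summed levels of 3.98 to 4.35 TPM in NC, 4.71 to 4.90 in LPS, 6.85 to 8.01 in C498, and 5.08 and 15.4 TPM in replicates 1 and 2 of C498+LPS, of which replicate 2 also had the higher Irf4 level. Of these markers none was at 0 in all samples, 4 had a mean under 1 TPM and the 2 that were tested did not pass. The 6 markers of conventional dendritic cells summed to 0.890 to 2.15 TPM in the samples without C498 and 3.20 to 4.96 TPM in those with it. Zbtb46, the only one of them tested, was higher in C498+LPS vs LPS (1.21, adjusted p = 0.0354 in limma), where Irf4 and Irf8 also rose. The other 5 had a mean under 1 TPM. Flt3 had means of 0.33 TPM in NC, 0.37 in LPS, 0.905 in C498 and 0.97 in C498+LPS. Clec9a went the other way, with means of 0.55, 0.01, 0.22 and 0 TPM in this order. Xcr1, Cd209a and Itgae were at 0.55 TPM or less in every sample. The part of these cells in the level of Irf4 was not tested.

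**Figure D2:**
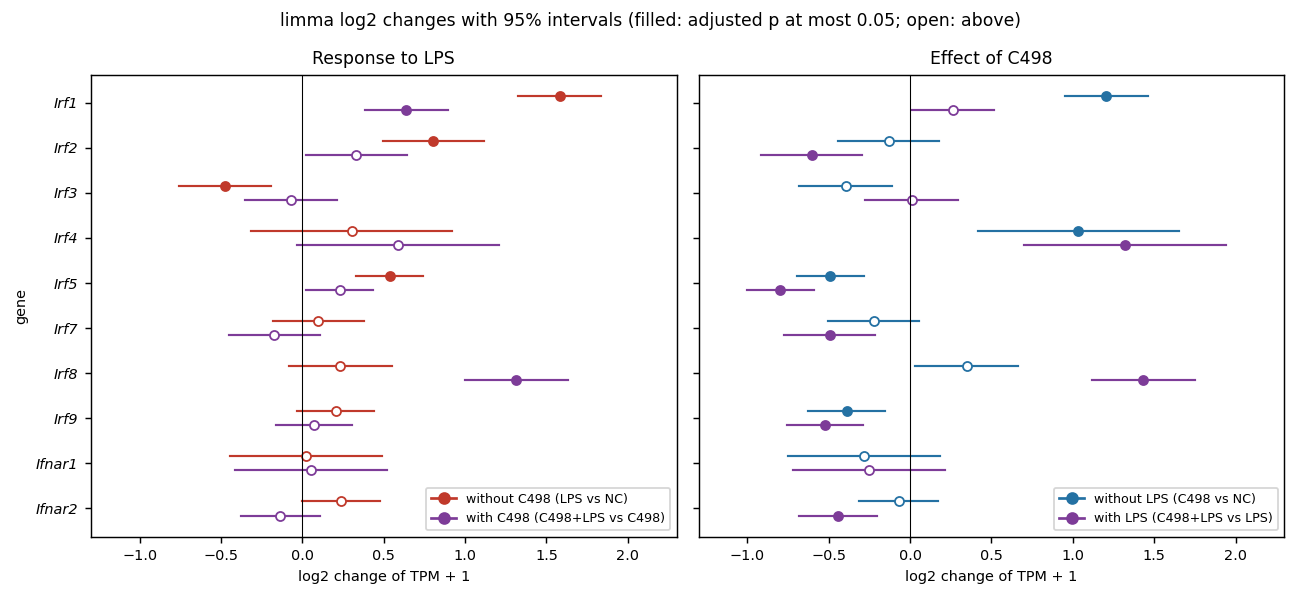
Log2 change of TPM + 1 (horizontal axis) of the 10 genes with 95% intervals from limma, for the response to LPS without and with C498 (left) and the effect of C498 without and with LPS (right), with filled points at an adjusted p of at most 0.05. Irf8 was at 1.31 with and 0.23 without C498 in the response to LPS, and Irf1 at 0.64 with and 1.58 without it.

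Counted together, 3 of the 10 genes rose in LPS vs NC (Irf1, Irf2 and Irf5) and 1 fell (Irf3), where 29.6% of all tested genes passed the test, 9.84% as higher and 19.8% as lower. In C498 vs NC, 2 rose (Irf1 and Irf4) and 2 fell (Irf5 and Irf9), against 15.5% of all genes, 9.29% as higher and 6.19% as lower. Of the 7 that passed in C498+LPS vs LPS, 2 rose (Irf4 and Irf8) and 5 fell (Irf2, Irf5, Irf7, Irf9 and Ifnar2), against 16.8% of all genes, 9.08% as higher and 7.7% as lower. Last, 2 rose in C498+LPS vs C498 (Irf1 and Irf8) and none fell in limma, against 16.2%, 4.51% as higher and 11.7% as lower. The samples of the groups compared did not overlap in 8, 6, 9 and 7 of the 10 genes, where 61.4%, 57.7%, 62.8% and 66.2% of all genes did not. These shares depend on the scaling, since 33.3% of the genes that passed in LPS vs NC were higher, against 54.9% with centring and 45.2% with quantile normalization. The same share was 60%, 48.3% and 51.1% in C498 vs NC, 54.1%, 45.2% and 48.8% in C498+LPS vs LPS, and 27.8%, 59.9% and 44.7% in C498+LPS vs C498. The median changes of the 10 genes were 0.24, -0.18, -0.35 and 0.15 in this order, and those of all tested genes -0.17, 0.014, 0.0065 and -0.18. DEGs were Irf1 in LPS vs NC (12.2% of all genes were DEGs), Irf1 and Irf4 in C498 vs NC (7%), Irf4 and Irf8 in C498+LPS vs LPS (7.57%) and Irf8 in C498+LPS vs C498 (5.64%). No member fell 2-fold in any comparison. LPS vs NC and C498 vs NC share the NC samples, and C498+LPS vs LPS shares the LPS samples with the first.

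Whether C498 altered the response to LPS was tested by the interaction, the response with C498 minus that without. For Irf8 it was 1.08 (standard error 0.190, 95% interval 0.64 to 1.53), and for Irf1 -0.94 (standard error 0.153, 95% interval -1.302 to -0.58). Neither passed in limma after adjustment over all genes (adjusted p = 0.0783 and 0.0664), and both passed with the replicate number as a block (0.0212 and 0.0172). None of the 10 genes passed, whereas 6 had an unadjusted p under 0.05 (Irf1, Irf2, Irf3, Irf5, Irf8 and Ifnar2). Of all tested genes 0.492% passed this test and 11.1% had an unadjusted p under 0.05. For Irf7, Irf9, Irf4 and Ifnar1 the 95% intervals were -0.67 to 0.13, -0.47 to 0.20, -0.59 to 1.16 and -0.63 to 0.69, so that changes of the response within these bounds are not excluded.

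**Figure D3:**
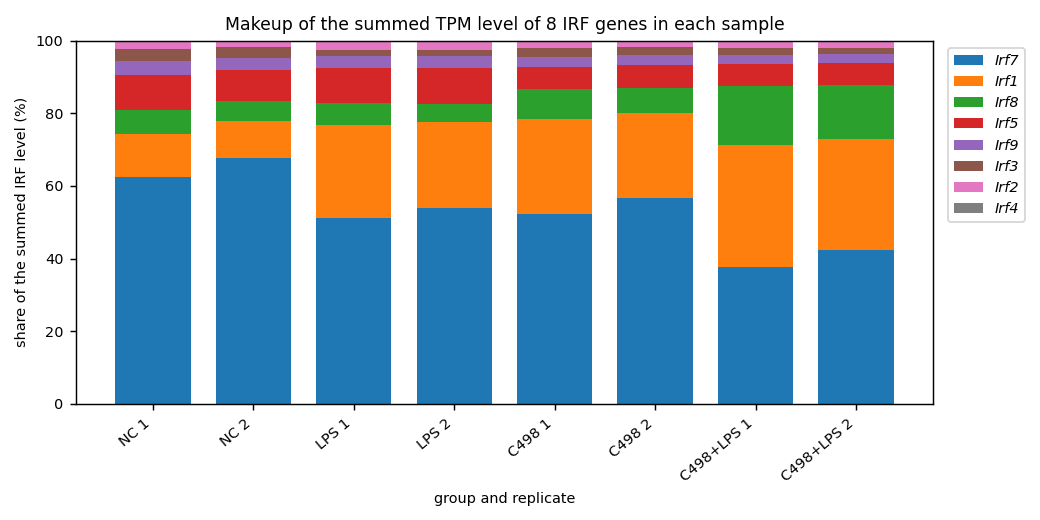
Share of the summed TPM level of the 8 IRF genes (vertical axis, percent) taken by each gene in every sample. Irf7 took 62.4% and 67.8% in NC and 37.7% and 42.4% in C498+LPS, where Irf1 and Irf8 took more.

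The summed level of the IRF transcripts and the share of single genes in it are described here. The 8 genes summed to 1381 and 1566 TPM in NC, 2036 and 1870.3 TPM in LPS, 1485 and 1526 TPM in C498, and 1828 and 1806 TPM in C498+LPS. Irf7 made up 62.4% and 67.8% of this sum in NC, 51.0% and 53.9% in LPS, 52.3% and 56.6% in C498, and 37.7% and 42.4% in C498+LPS. Irf1 went from 12.02% and 10.02% in NC to 33.5% and 30.6% in C498+LPS, and Irf8 from 6.57% and 5.58% to 16.4% and 14.9%. These shares are a description without a test, and a larger share of 1 gene lowers those of the others.

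The genes around the IRFs in the pathway were then counted from lists. Among the ligands, Ifnb1 was listed at 0 in both NC samples, at 0.270 and 1.60 TPM in LPS, at 0 and 0.130 TPM in C498, and at 1.10 and 0.650 TPM in C498+LPS. It was under the minimum mean of 1 TPM and was not tested, as were the other 16 ligands of type I interferon, whose group means did not exceed 0.12 TPM.

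Of 12 sensors and adaptors upstream of the IRFs, 6 rose in LPS vs NC, where 9.84% of all tested genes were higher and 19.8% lower, among them the RNA sensors Ifih1 (2.49) and Tlr3 (1.64), and 2 fell, Mavs (-0.95) and Sting1 (-0.83), the adaptors of the RNA and DNA sensors. The fall of Sting1 did not pass with centring (-0.66, adjusted p = 0.0647 in limma), and 2 of 12 is close to the share of all genes that were lower. None rose in C498+LPS vs LPS and 5 fell, against 7.7% of all genes, which were Tlr3 (-1.14), Ddx58 (-1.12), Tlr4 (-1.10), Tlr7 (-1.07) and Myd88 (-0.83). With C498 alone Tlr7 (-1.11) and Tlr9 (-0.84) fell, against 6.19% of all tested genes, and none rose. Of 10 kinases and ubiquitin ligases, Tank (1.69) and Azi2 (1.08), scaffolds of TBK1, rose in LPS vs NC (against 9.84% of all tested genes), whereas Ikbke (-0.68 and -1.001), which encodes IKKε, and Ikbkb (-0.33 and -0.50) fell in C498 vs NC (against 6.19% of all tested genes) and in C498+LPS vs LPS (against 7.7%). Ikbkb did not pass in C498 vs NC with centring or quantile normalization (adjusted p = 0.0618 and 0.0573 in limma), while Tank passed as higher with both. With centring and with quantile normalization, 4 and 3 of the 10 rose in LPS vs NC, beside 1775 and 1601 of all 12189 genes tested, and 5 and 2 fell in C498+LPS vs LPS, beside 1304 and 1241 of all. These values are log2 changes of genes that passed the test, and Tbk1 itself passed in no comparison, but passed with centring as higher in LPS vs NC (0.77, adjusted p = 0.00961) and lower in C498+LPS vs LPS (-0.56, adjusted p = 0.0423).

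In the ISGF3 branch, Stat2 rose in LPS vs NC (0.67, adjusted p = 0.0152 in limma), and the receptor kinase gene Tyk2 fell in C498+LPS vs LPS (-0.82, adjusted p = 0.0134). Stat2 was there at -0.52 with an adjusted p of 0.0567, and passed with centring (-0.60, adjusted p = 0.0128). Of 10 inhibitors of interferon receptor signaling, 4 rose in LPS vs NC (Socs1, Socs3, Trim21 and Usp18), against 9.84% of all tested genes, and 2 fell, Irf2bp2 and Irf2bpl. These 2 belong to a family of nuclear co-repressors that bind IRF2 and do not act at the receptor, although the list holds them. The 2 of 10 that fell match the 19.8% of all tested genes that were lower there. In C498+LPS vs LPS 3 fell, the phosphatase gene Ptpn6 (-1.28), Usp18 (-1.02) and Trim21 (-1.004), against 7.7% of all genes. None rose (9.08% of all genes did), whereas 1 rose with centring and 2 with quantile normalization, beside 1077 and 1182 of all 12189 genes tested. In C498 vs NC, Ptpn6 (-0.97) and Usp18 (-0.32) also fell and Socs1 (1.05) and Socs3 rose, against 6.19% of all tested genes lower and 9.29% higher. Socs3 rose 2.06 with LPS and 1.34 with C498 alone (log2 changes), and its interaction was -1.05 with an adjusted p of 0.0436, a call lost with centring (-1.01, adjusted p = 0.0758).

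Of the 7 tested partners with which IRF4 and IRF8 bind DNA, Spi1, which encodes PU.1, fell in C498 vs NC (-0.77) and in C498+LPS vs LPS (-0.97, from a mean of 457 to 234 TPM; limma, adjusted p = 0.00155). Batf fell in both comparisons as well (-0.92 and -0.93) and rose with LPS (1.14). Ets1 rose with C498 (1.18 without and 1.41 with LPS), at mean levels of 0.850 to 5.38 TPM. Irf8 and Irf4 therefore had higher, and their partner Spi1 lower, levels in C498+LPS than in LPS. Of the 7, 3 rose and 2 fell in LPS vs NC (9.84% and 19.8% of all tested genes). Between C498 and NC 1 rose and 3 fell (9.29% and 6.19%). There 4 fell with either scaling, beside 1211 with centring and 1235 with quantile normalization of all 12189 genes tested. In C498+LPS vs LPS 1 rose and 4 fell (9.08% and 7.7%), of which Batf2 did not pass with quantile normalization (-0.49, adjusted p = 0.071 in limma).

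Of 30 interferon-stimulated genes, the targets of ISGF3 and IRFs, 27 rose in LPS vs NC (against 9.84% of all tested genes) with a median log2 change of 1.49, led by Rsad2 (4.09) and Cmpk2 (3.83), which encode antiviral enzymes. Against LPS alone, 22 fell in C498+LPS (against 7.7% of all tested genes) and none rose, with a median of -0.71 and the largest falls in Isg20 (-1.47) and Dhx58 (-1.10). With C498 alone 10 fell (against 6.19% of all tested genes), led by Dhx58 (-0.82) and Ifit3 (-0.79), and 2 rose, Rsad2 (1.02) and Gbp2 (0.69), a share below the 9.29% of all genes. Between C498+LPS and C498 24 rose (against 4.51% of all tested genes), with a median of 0.88 and the largest changes in Cmpk2 (3.10) and Mx1 (2.74). In the interaction 1 of the 30 passed (Rsad2, -1.54, adjusted p = 0.0478 in limma), where 0.492% of all tested genes did. With centring 2 and with quantile normalization 1 of the 30 passed it, beside 51 and 68 of all 12189 genes tested. With centring and with quantile normalization 28 and 26 rose in LPS vs NC, beside 1775 and 1601 of all 12189 genes tested. With the same scalings 25 and 25 fell in C498+LPS vs LPS, beside 1304 and 1241 of all.

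**Figure D4:**
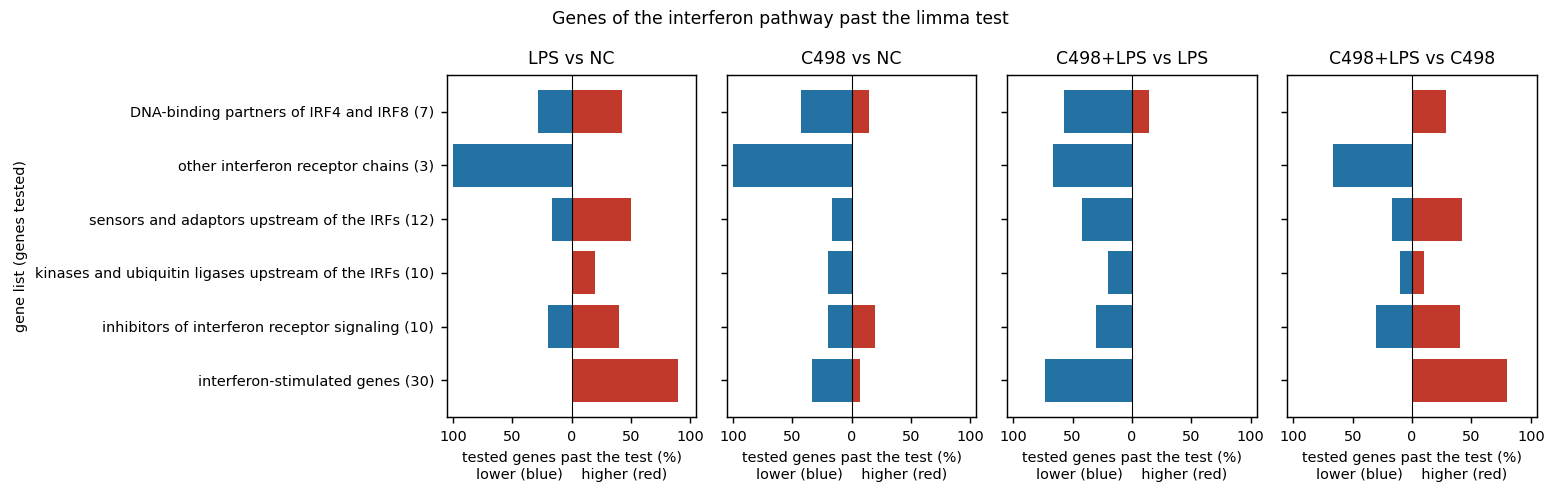
Share of the tested genes of 6 lists (vertical axis, number of genes tested in parentheses) that passed the limma test as higher (red) or lower (blue) in 4 comparisons, in percent on the horizontal axis. Among interferon-stimulated genes 27 of 30 were higher in LPS vs NC and 22 of 30 were lower in C498+LPS vs LPS.

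The genes most like each member over the 8 samples were found among 6980 named genes with a mean of at least 10 TPM, by Pearson's r of log2(TPM + 1). The samples share their groups, so that high values are common, and r is given as a description. Irf1 was most like Socs3 (r = 0.994) and Tnfaip3 (0.993), both of which inhibit inflammatory signaling. Irf5 was most like Gpr84 (0.992), a receptor for medium-chain fatty acids, and Slc28a2 (0.992), a nucleoside transporter. Irf2 followed Clmp (0.996) and Mlkl (0.989), which acts in necroptosis, and Irf9 followed Zbp1 (0.984), an interferon-induced sensor of nucleic acids. Irf4 was most like Ccr7 (0.992), the receptor that leads dendritic cells to lymph nodes, and Rras2 (0.987). The closest genes to Irf8 were Gpr132 and Zc3h15 with r of 0.968 and 0.967, to Irf7 Tspo (0.969) and Mrpl54 (0.960), and to Irf3 Tmem222 and Zfp746 (both 0.967). Ifnar1 was most like Atxn7l3b (0.974) and Ifnar2 most like Pisd (0.988).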

How the data were processed

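RNA was measured in 8 samples, 2 per group. Before deposit the authors trimmed the reads (fastp), mapped them (HISAT2), and built and quantified transcripts (StringTie, RSEM). The table the authors deposited holds TPM per sample and, unused here, group means. Versions, genome build, annotation and strand setting are not given in the sources used here. Gene positions are those of GENCODE M21 on GRCm38, matched by Ensembl identifier. TPM keeps no depth, which leaves the depth of each value unknown. A sample had 17528 to 18975 genes above 0.

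Differences were computed on log2(TPM + 1) with limma 3.58.1 in R 4.3.3. The fit had 1 mean per group over all 8 samples and a variance trend, and took every gene whose mean reached 1 TPM (12189 genes), with Benjamini-Hochberg adjustment within a comparison. An exact two-sided permutation test of 2 samples against 2 cannot go below p = 0.333 and was not used. DESeq2, the study's tool, needs counts and was not run. The fit was tested on simulated data, where it missed most of the smaller planted changes, so that a gene that did not pass may still have changed.

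Members, lists, tests and alternatives were chosen with earlier results of these data known. The genes named are the 10 members, Ifnb1, genes of pathway lists of up to 12 genes, of longer lists the 2 genes past the test that changed most each way, the 2 most similar to each member, and overlapping or marker genes. Some genes the rule names are not reported here. Promoters are from RefSeq, where all 10 members were found. Figures were drawn with matplotlib 3.10.9. Alternatives were a pseudocount of 0.1, other filters (none, or a mean of 5 TPM), centring on the median gene, quantile normalization, fits restricted to the pair of groups, no variance trend, a replicate block, and leaving out each sample.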

Additional observations from a re-analysis of the deposited data

How the results depend on the processing

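Of 785 recomputed changes of members, 700 kept their direction and their side of the threshold, 59 lost a call, 8 gained one and 18 changed sign, none of them a called value. Leaving out 1 sample gave 3 to 4 members past the test in LPS vs NC (4 with all samples), 1 to 3 in C498 vs NC (4), and 2 to 7 in C498+LPS vs LPS (7). For C498+LPS vs C498 the number was 1 to 2 (2). These fits have fewer samples, and where 1 sample of a group is left it is assumed to vary like the other groups. In C498 vs NC 1 member passed in a fit of these groups alone. The share of all genes that passed in these reduced fits is not given here. A lower count in them therefore does not show that the members were less stable than other genes. Deviations of same-numbered samples correlated by 0.0397 to 0.168 between groups, above 0.1 in 3 of 6 pairs of groups, and the samples were not treated as paired, although the values do not exclude a shared batch. With the replicate number as a block, 2 members passed the interaction in place of 0, and Irf8 passed in C498 vs NC (adjusted p = 0.042). Across all genes, the interaction was called in 60 genes, 21 without a filter, 12 without a variance trend and 100 with the block. Irf4 is not tested at a mean of 5 TPM, and a fit of 1 pair of groups gives no interaction. Other gained calls were Irf2 in C498+LPS vs C498 with either scaling, Irf9 in LPS vs NC with centring (adjusted p = 0.0466), Irf3 in C498 vs NC with quantile normalization (0.0466) and Irf7 in C498 vs NC without NC replicate 1 (0.0489).

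With centring, signs changed for Irf3 in C498+LPS vs LPS (-0.068) and, for C498+LPS against C498, of Irf3 (0.14, and 0.057 with quantile normalization), Irf7 (0.042) and Ifnar2 (0.080). Leaving out 1 sample, changes ranged in LPS vs NC from -0.053 to 0.25 for Irf7 and from -0.28 to 0.32 for Ifnar1, in C498 vs NC from -0.58 to 0.013 for Ifnar1 and from -0.16 to 0.016 for Ifnar2, and in C498+LPS vs LPS from -0.13 to 0.14 for Irf3. For C498+LPS vs C498 they ranged from -0.21 to 0.064 for Irf3 and from -0.097 to 0.21 for Ifnar1, and for the interaction from -0.010 to 0.58 for Irf4 and from -0.26 to 0.33 for Ifnar1. The cause of these shifts was not tested, and with the depth unknown the counting error of low genes such as Irf4 cannot be given.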
